A study of Mus musculus with 30 samples.

Results

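The macrophage and leukocyte genes described here are 36 genes that mark or equip macrophages and, more widely, white blood cells. They were taken as a set by name, with earlier results of these data known. All 36 had a probe set on the array, and 33 of them were bright enough to be tested, out of 15136 genes tested in all. Itgam, Cd48 and Aif1 never rose above the 40th percentile of an array on any of the 30 arrays and were not tested.

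The RNA came from limb bud cells of CD-1 mouse embryos at stage E10.5, which were microdissected, dissociated and plated as dense primary cultures. The labels name 3 populations: early cells from the distal hindlimb, intermediate cells from the distal forelimb and late cells from the proximal forelimb. The early and intermediate populations are called the distal populations below. Each population was sampled in control medium at days 0, 1 and 2 and in medium with 20 ng/ml BMP4, given at the start of culture, at days 1 and 2. No group carries a genetic change, and each of the 15 groups holds 2 arrays that the labels call biological replicates. Each RNA came from cultures pooled from about 280 embryos, and the cultures were made from whole dissected tissue, with no sorting step named in the labels, so they could hold the blood and vessel cells of the limb bud. The study asked how BMP4 acts on cartilage formation in these cultures, and the macrophage genes were not its subject.

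Macrophages of the early embryo arise from yolk sac progenitors and enter the limb bud with the first vessels. There they take up dying cells, which they clear through scavenger and lectin receptors into lysosomes rich in cathepsins. Their survival depends on the receptor Csf1r, and the transcription factor PU.1, encoded by Spi1, drives many of their genes through a purine-rich DNA element, the PU box. BMP4 signals through SMAD proteins in cells that carry its receptors.

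Levels are given as log2(signal + 16), where signal is the deposited array intensity, so that a signal of 0 reads 4 and differences of dim genes are understated. An array's 40th percentile lay between 5.18 and 5.54 on that scale. Most of the genes lay close to it: the median level over the 30 arrays ran from 4.14 for Cd48 to 7.97 for Csf1r. Levels of different genes come from different probe sets and are not compared. A change is called where the adjusted p of limma, with Benjamini-Hochberg adjustment over all 15136 genes, is under 0.05. In bulk RNA of this kind, more cells of a type and more RNA per cell cannot be told apart.

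At day 0 limb identity genes went against labels. Pitx1, a hindlimb gene, read 9.74 and 5.90 in the 2 arrays labelled early and 6.15 and 9.43 in the 2 labelled intermediate. Tbx5, a forelimb gene, read 4.47 and 8.50 in the former and 8.47 and 4.68 in the latter. Meis2, a gene of the proximal limb, read 9.68 and 9.86 in early, 6.97 and 9.73 in intermediate and 9.60 and 7.53 in late arrays, so the 2 late arrays differed too. The replicate 2 arrays of all 3 populations at day 0 are therefore in doubt, and comparisons with day 0 are given as means over populations, with and without the replicate 2 arrays. Other comparisons contrast no day 0 array, but all 30 arrays, those of day 0 included, enter the shared estimate of spread. Replicate arrays had r of 0.970 to 0.984 over all genes. The median signal of an array ran from 36.2 to 46.4 in the 8 BMP4 arrays of the distal populations and from 33.9 to 44.9 in the other 22. The highest medians of all, 46.4, 46.1 and 46.0, were in distal BMP4 arrays, and the levels given below were not centred for this. With each array centred on its median, 16 genes were still called for BMP4 against control over all populations and days. The limb mesenchyme genes Prrx1, Prrx2, Twist1, Twist2, Msx1, Lhx9, Pdgfra, Col1a1 and Col1a2 each exceeded the 40th percentile on all 30 arrays. Their medians over the arrays ran from 8.54 (Msx1) to 10.87 (Col1a2).

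The stretches around the transcription start that follow are shown because the PU box links the promoters of many of these genes to Spi1, itself one of the 36. RefSeq sequence of assembly GRCm38.p6 was held for 25 of the 36 genes, as windows of 300 bases that end 50 bases after the start. GAGGAA, the core of the PU box, was searched on both strands (TTCCTC on the other one). It was found in 17 of the 25 windows, 68%, and in 26.5% of the 12112 windows of genes tested on the array. The windows of the 25 genes had a median GC content of 47.3%, against 60% for those 12112, and the match was not adjusted for that. GGCGCC, a GC-rich element that SMAD proteins can bind, lay in 2 of the 25 windows, 8%, and in 19.9% of the 12112. That match was not adjusted for GC content either. Over all 27025 promoter windows held, GAGGAA lay in 28.3% and GGCGCC in 12%. These shares describe letters in a window and not bound sites. Ctss and Cd53 were chosen for printing because they lay higher in all distal BMP4 arrays than elsewhere, C1qb as a complement gene with 1 box near its start, and Mpeg1 because it rose most with BMP4 and its window holds no match. Each stretch runs from 170 bases before the start to 30 bases after it, 5′ to 3′ on the gene's strand, with GAGGAA or TTCCTC in capitals. Ctss lies at chr3:95526616-95526815, plus strand, Cd53 at chr3:106790120-106790319, minus strand, C1qb at chr4:136886171-136886370, minus strand and Mpeg1 at chr19:12460600-12460799, plus strand.
Ctss: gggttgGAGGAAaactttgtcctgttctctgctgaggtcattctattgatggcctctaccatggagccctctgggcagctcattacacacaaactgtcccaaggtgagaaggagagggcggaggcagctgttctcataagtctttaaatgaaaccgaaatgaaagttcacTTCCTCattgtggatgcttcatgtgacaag
Cd53: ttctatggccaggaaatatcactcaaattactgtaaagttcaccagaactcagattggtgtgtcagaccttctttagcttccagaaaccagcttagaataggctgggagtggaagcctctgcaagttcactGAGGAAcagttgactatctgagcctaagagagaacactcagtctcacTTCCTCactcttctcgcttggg
C1qb: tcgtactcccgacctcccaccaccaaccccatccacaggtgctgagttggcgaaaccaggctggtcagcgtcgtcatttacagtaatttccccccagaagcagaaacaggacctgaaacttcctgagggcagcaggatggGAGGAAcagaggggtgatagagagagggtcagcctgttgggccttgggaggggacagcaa
Mpeg1: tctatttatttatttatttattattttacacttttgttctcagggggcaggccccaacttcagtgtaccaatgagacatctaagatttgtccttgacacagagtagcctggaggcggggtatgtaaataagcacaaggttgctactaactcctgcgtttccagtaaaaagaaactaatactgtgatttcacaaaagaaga
The stretches of Ctss and Cd53 hold 2 matches each, 1 of them at or just after the start, that of C1qb holds 1, and that of Mpeg1 holds 0. C1qb, C1qc and C1qa are neighbours on chromosome 4, and Ccl3 and Ccl4 on chromosome 11.

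The mean log2 level of the 33 tested genes was 6.37 to 6.77 in the BMP4 arrays of the early and intermediate populations. It was 5.72 to 6.15 in the 8 control arrays of the same populations at days 1 and 2, 5.58 to 5.75 in the 4 BMP4 arrays of the late population and 5.52 to 5.76 in its 4 control arrays. Day 0 gave 5.80 to 6.15. The distal BMP4 arrays overlapped with no other set, while the late population's BMP4 and control arrays overlapped with each other. The mean is not free of the choice of genes. C1qa and Slc15a3 were bright enough to enter it through distal BMP4 arrays only, and Mpeg1 through 8 such arrays and 1 other. The dim genes Itgam, Cd48 and Aif1 are left out of it.

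**Figure D1:**
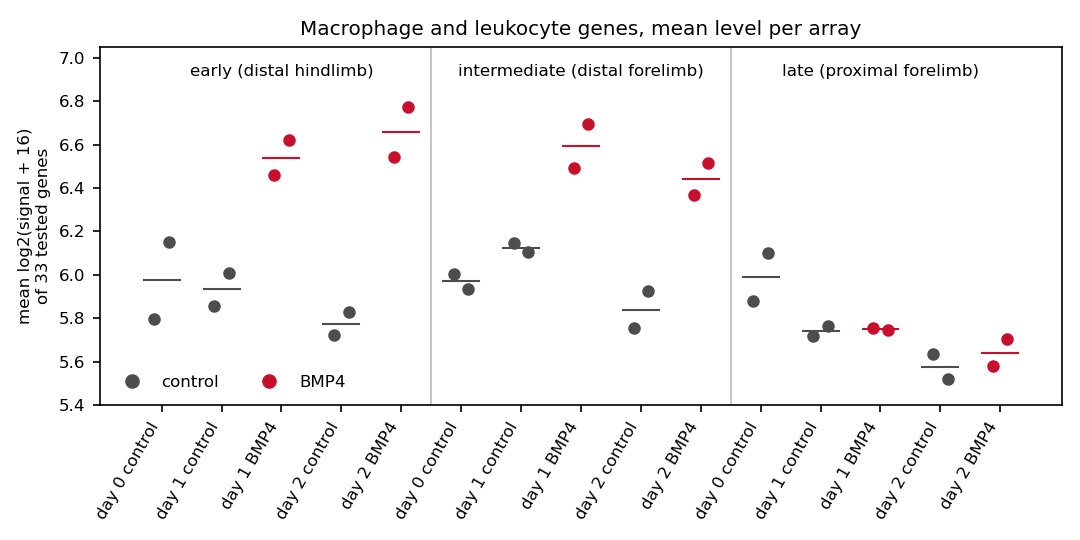
Mean log2(signal + 16) of the 33 tested genes in each array, by population, day and treatment. Each point is an array, and each line is the mean of the 2 arrays of a group. The 8 BMP4 arrays of the early and intermediate populations sit between 6.37 and 6.77, above the other 22 arrays, which reach 6.15 at most. C1qa and Slc15a3 were bright enough to be among the 33 through arrays of those 8 only.

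With the 3 populations and both days averaged, 16 of the 33 tested genes rose with BMP4 and 0 fell. Among all genes tested 11.7% were called, 6.1% as higher and 5.55% as lower. The median difference of the 33 genes was 0.44, against 0.01 for all genes, and 31 of the 33 lay above 0. Some genes passed the brightness filter because of the very arrays in which they were high: C1qa and Slc15a3 exceeded the 40th percentile in distal BMP4 arrays only, and Mpeg1 in 8 such arrays and 1 other. With no filter, all 36 genes were fitted and 16 were called, with a median of 0.31 against 0.01. The 16 genes were Mpeg1, C1qb, Ctss, Slc15a3, C1qc, Tyrobp, Msr1, Lyz2, Cd53, Pf4, Ptprc, C1qa, Cx3cr1, Cd68, Csf1r and Fcgr3. Each of the 16 passed the threshold in all 24 fits that left out 1 array. Leaving out the replicate 2 arrays of day 0 from the fit gave 17 genes.

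In the early population, with both days averaged, 18 of the 33 genes rose with BMP4, where 5.44% of all genes did, and the median difference was 0.71 against 0.04. In the intermediate population 5 rose, where 0.311% of all genes did, and the median was 0.54 against 0.01. Leaving out replicate 2 of day 1 BMP4, replicate 1 of day 2 control or replicate 2 of day 2 BMP4 reduced those 5 to 0, and leaving out replicate 2 of day 1 control reduced them to 3. In the late population 0 were called by limma, where 0.231% of all genes rose, 2 had an unadjusted p under 0.05, and the median was 0.05 against -0.0031. These 3 contrasts were added after the data were seen.

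**Figure D2:**
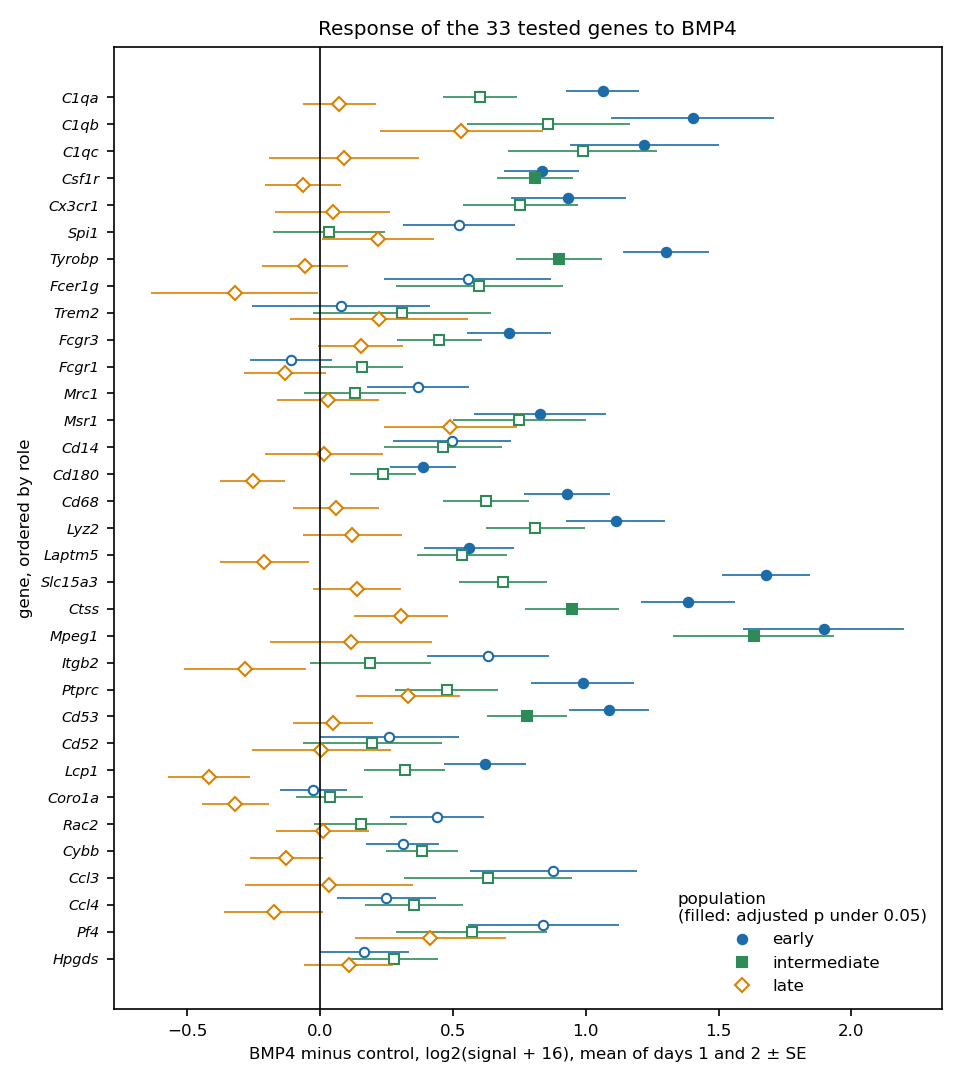
BMP4 minus control on the log2(signal + 16) scale for each of the 33 tested genes, averaged over days 1 and 2, with the standard error, for the early (circles), intermediate (squares) and late (diamonds) populations. Filled symbols passed an adjusted p of 0.05 by limma. The early values reach 1.90 for Mpeg1, and no late symbol is filled.

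The difference between the early and late responses was tested directly. It passed the threshold for 7 of the 33 genes, each higher in the early population: Slc15a3, Tyrobp, Ctss, Cd53, Lcp1, C1qa and Csf1r. Among all genes 0.337% passed in that direction, and the median over the 33 was 0.77 against 0.02. Slc15a3 and C1qa had passed the brightness filter through distal BMP4 arrays only. With no filter 6 of the 36 genes were called, with a median of 0.65 against 0.04, and Ctss was not among them. Tyrobp and Slc15a3 passed in all 16 fits without 1 array. The other 5 passed in 9 (C1qa), 8 (Cd53), 4 (Lcp1), 3 (Ctss) and 1 (Csf1r) of 16, so that between 2 and 8 genes were called, and 12 of the 16 arrays brought the count to 4 or fewer when left out. Those 12 were both replicates of late day 1 control, late day 1 BMP4, late day 2 BMP4 and early day 2 control, with replicate 1 of early day 1 control and late day 2 control and replicate 2 of early day 1 BMP4 and early day 2 BMP4. Centring each array on its median left 3 genes, Tyrobp, Slc15a3 and Cd53. For intermediate minus late, limma called 0 members and 0 of all genes, while 15 members had an unadjusted p under 0.05 and the median was 0.51 against 0.01. For early minus intermediate it called 0 members, 2 had an unadjusted p under 0.05, and 0.429% of all genes were called.

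By day, the early population showed 4 members higher with BMP4 at day 1, C1qc, Tyrobp, Slc15a3 and Ctss, where 1.53% of all genes were higher and 0.918% lower. Leaving out replicate 1 of early day 1 control or replicate 2 of early day 1 BMP4 left 1. Slc15a3 was called in all 4 fits without 1 array and C1qc in 0 of them. With no filter C1qa was called and C1qc was not. At day 2 there were 13, where 5.68% of all genes were called, 2.4% as higher and 3.28% as lower, with a median of 0.81 against 0.02. They were Mpeg1, Slc15a3, Cd53, Ctss, C1qb, Tyrobp, C1qa, Cx3cr1, Lyz2, Cd68, Ptprc, Csf1r and Fcgr3. Without replicate 1 of early day 2 control 6 were called, and without replicate 2 of early day 2 BMP4 5 were called. C1qb was called in 0 of the 4 fits without 1 array. In the intermediate population only C1qa was called at day 1, by 0.99 ± 0.19 (SE, n = 2 arrays a group), where 0.172% of all genes were higher. Leaving out either control array or replicate 2 of BMP4 brought that count to 0. At day 2 limma called 0 members and 0.00661% of all genes, while 19 members had an unadjusted p under 0.05 and the median was 0.55. In the late population limma called 0 members at day 1, where 0.0793% of all genes were called, 0.0661% as higher and 0.0132% as lower, and 1 member had an unadjusted p under 0.05. It called 0 members at day 2, where 0.0132% of all genes were called, and 2 members had an unadjusted p under 0.05. The late medians were 0.03 on both days.

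The complement C1q chains, which opsonise dying cells and are made in the embryo chiefly by macrophages, all rose. C1qa read 4.77 and 5.13 in early BMP4 cultures at day 1 and 5.74 and 5.75 at day 2, against 4.22 to 4.38 in the 4 early controls. In the intermediate population it read 5.31 and 5.61 at day 1 and 4.69 and 4.75 at day 2 with BMP4, against 4.47 to 4.51 in controls. The 4 late BMP4 arrays read 4.37 to 4.49 and the 4 late controls 4.24 to 4.49. C1qa was thus near the bottom of the scale in all arrays outside the distal BMP4 set. Some distal BMP4 arrays were dim too, such as the intermediate ones of day 2 (4.69 and 4.75). The early ones of day 1 (4.77 and 5.13) were also dim. Even so, C1qa in the distal BMP4 arrays overlapped with no other array. Its early response exceeded its late one by 0.99 ± 0.19 (adjusted p = 0.0212, limma).

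C1qb had a median of 7.21 (6.56 to 7.61) in the 8 distal BMP4 arrays and of 6.01 (5.44 to 6.92) in the 8 distal controls. C1qc had a median of 6.17 (5.92 to 6.45) against 5.12 (4.46 to 6.01). For both genes 1 or more control arrays reached into the BMP4 range, and the replicates of intermediate day 1 control lay far apart for C1qc (6.01 and 4.57). Averaged over populations and days C1qb rose by 0.93 ± 0.18 (adjusted p = 0.00146, limma) and C1qc by 0.77 ± 0.16 (adjusted p = 0.00366).

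Among the receptors for growth factors and chemokines, Csf1r, the receptor that macrophages need to survive, was bright in all groups. It read 8.44 and 8.70 at day 1 and 8.90 and 8.86 at day 2 in early BMP4 cultures, and 8.70, 9.06, 8.65 and 8.77 in the intermediate ones. The 8 distal controls read 7.75 to 8.09, the 4 late BMP4 arrays 7.39 to 7.80, the 4 late controls 7.55 to 7.74 and day 0 7.59 to 8.32. The distal BMP4 arrays lay above all others, while the late BMP4 arrays spanned their controls. The BMP4 difference of Csf1r was 0.83 ± 0.14 in early (adjusted p = 0.000663, limma), 0.81 ± 0.14 in intermediate (adjusted p = 0.0118) and -0.06 ± 0.14 in late cultures (adjusted p = 0.942). Its intermediate call held in 5 of the 8 fits without 1 array. The fractalkine receptor Cx3cr1 had a median of 6.60 (6.14 to 6.84) in distal BMP4 arrays and 5.70 (5.07 to 6.18) in distal controls, 5.50 (5.17 to 5.99) in late BMP4 arrays and 5.47 (5.30 to 5.72) in late controls. It rose by 0.58 ± 0.12 over all populations (adjusted p = 0.00411), and its early minus late difference of 0.89 ± 0.31 was not called (adjusted p = 0.217).

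Spi1, which encodes PU.1, did not follow the other genes closely. It had a median of 6.12 (5.34 to 6.52) in distal BMP4 arrays and 5.71 (5.48 to 6.0) in distal controls, so the sets overlapped. Its BMP4 difference was 0.26 ± 0.12 (adjusted p = 0.186, limma), and it read 6.26 and 6.52 in early BMP4 cultures at day 1 against 5.61 and 5.52 in their controls (adjusted p = 0.171). From day 0 to day 1 in control medium it changed by -0.52 ± 0.17 (adjusted p = 0.019), and by -0.36 without the replicate 2 arrays of day 0, where it was no longer called (adjusted p = 0.21).

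Of the ITAM adaptors and Fc receptors, Tyrobp and Fcgr3 rose and the other 3 were not called. Tyrobp, also named DAP12, carries signals from activating receptors such as Trem2. It read 7.32 and 7.68 at day 1 and 7.63 and 7.93 at day 2 in early BMP4 cultures, against 6.24 to 6.47 in the 4 early controls. In intermediate cultures it read 7.50, 7.82, 7.23 and 7.58 with BMP4, against 6.17 to 6.89, and in late cultures 5.77 to 6.31 with BMP4 against 5.96 to 6.42. The distal BMP4 arrays lay above every other array, and the late ones did not separate from their controls. The early difference of 1.30 ± 0.16 was a 2.46-fold rise in signal + 16 (adjusted p = 2.95e-05, limma), and early exceeded late by 1.36 ± 0.23 (adjusted p = 0.00661).

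Fcgr3, a receptor for immunoglobulin G, had a median of 6.48 (5.95 to 6.82) in distal BMP4 arrays, 5.92 (5.47 to 6.18) in distal controls and 5.34 (5.10 to 5.45) in late controls. It rose with BMP4 by 0.44 ± 0.09 (adjusted p = 0.00319, limma). Fcer1g, the other adaptor of the group, differed by 0.28 ± 0.18 (adjusted p = 0.365) and Trem2 by 0.20 ± 0.19 (adjusted p = 0.567). Fcgr1, the high-affinity Fc receptor, differed by -0.03 ± 0.09 (adjusted p = 0.893). A second probe set of Fcgr1, dimmer than the one used, rose by 0.38 ± 0.09 (adjusted p = 0.0129 in a fit of 27577 probe sets), so the 2 probe sets of Fcgr1 disagreed.

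Of the scavenger, lectin and pattern receptors, 1 of 4 rose. Msr1, the class A scavenger receptor, had a median of 6.52 (6.03 to 7.14) in distal BMP4 arrays and 5.76 (5.30 to 6.23) in distal controls and rose by 0.69 ± 0.14 (adjusted p = 0.00314, limma). Late BMP4 cultures at day 2 read 5.88 and 6.05 against 5.32 and 4.26 in controls, a difference of 1.17 ± 0.35 that was not called (adjusted p = 0.779). Mrc1, the mannose receptor of tissue macrophages, differed by 0.18 ± 0.11 (adjusted p = 0.344), Cd14 by 0.33 ± 0.13 (adjusted p = 0.111) and Cd180 by 0.12 ± 0.07 (adjusted p = 0.298). Cd180, a Toll-like receptor homologue, differed in early cultures by 0.39 ± 0.12 (adjusted p = 0.047), a call that held in 1 of the 8 fits without 1 array, that without replicate 2 of early day 1 control, and that was not made with no filter. Its early minus late difference of 0.64 ± 0.17 was not called (adjusted p = 0.102).

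Of the lysosomal and endosomal genes 5 of 6 rose. Slc15a3, a peptide and histidine transporter of the lysosome membrane, read 5.99, 5.79, 6.13 and 6.14 in early BMP4 cultures and 4.16 to 4.49 in early controls. Intermediate BMP4 cultures read 5.62, 5.48, 5.57 and 5.65 against 4.76 to 4.98 in controls. Late cultures read 4.07 to 4.75 with BMP4 and 4.22 to 4.49 without. Its 4 early BMP4 values were the highest of all 30 arrays, the 4 intermediate ones came next, and late BMP4 values spanned their controls. Early exceeded late by 1.54 ± 0.23 (adjusted p = 0.00232, limma), and early minus intermediate was 0.99 ± 0.23 (adjusted p = 0.064). With no filter on dim genes Slc15a3 was the 1 member called in that comparison.

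Ctss, the elastin-degrading cathepsin S of antigen-presenting cells, changed both with time and with BMP4. It read 5.48 to 6.45 in the 6 day 0 arrays and 6.67 to 8.06 in all 12 control arrays of days 1 and 2, so culture and day 0 did not overlap. In BMP4 cultures of the early population it read 8.18 and 8.61 at day 1 and 8.86 and 9.19 at day 2, and in those of the intermediate population 8.57, 8.89, 8.88 and 9.13. Late BMP4 arrays read 6.92 to 7.32 against 6.67 to 7.07 in late controls, which overlapped. Ctss rose 2.61-fold in signal + 16 with BMP4 in early cultures (1.39 ± 0.18, adjusted p = 3.97e-05, limma).

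Mpeg1, the pore-forming perforin 2 of phagosomes, showed the largest early response. It read 5.57 and 7.30 at day 1 and 7.35 and 7.58 at day 2 with BMP4, against 4.99 to 5.11 in controls. Intermediate cultures read 6.95 and 7.81 at day 1 and 6.02 and 7.19 at day 2 with BMP4, against 6.29 and 5.20 and then 4.83 and 5.11. The replicates of early day 1 BMP4 lay much further apart than those of day 2, and 1 intermediate control reached into the BMP4 range. The early controls lay below the 40th percentile. The early difference was 1.90 ± 0.30 (adjusted p = 0.000387, limma), the intermediate one 1.63 ± 0.30 (adjusted p = 0.0141) and the late one 0.12 ± 0.30 (adjusted p = 0.953). The intermediate call held in 4 of the 8 fits without 1 array. Early minus late, 1.78 ± 0.43, was not called (adjusted p = 0.0569).

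Lyz2, lysozyme M of myeloid cells, had a median of 8.10 (7.54 to 8.63) in distal BMP4 arrays, 7.18 (6.50 to 7.46) in distal controls, 6.98 (6.82 to 7.12) in late BMP4 arrays and 6.84 (6.63 to 7.12) in late controls. It rose by 0.68 ± 0.11 over all populations (adjusted p = 0.00027, limma). Cd68, a heavily glycosylated protein of macrophage endosomes, had a median of 6.71 (6.27 to 7.30) in distal BMP4 arrays and 6.0 (5.53 to 6.29) in distal controls and rose by 0.54 ± 0.09 (adjusted p = 0.000689). Laptm5, a lysosomal membrane protein of blood cells, differed by 0.30 ± 0.10 (adjusted p = 0.0536). A second probe set of Laptm5 rose by 0.46 ± 0.11 (adjusted p = 0.0118 in the fit of 27577 probe sets), and 3 others of Laptm5 were not called there.

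**Figure D3:**
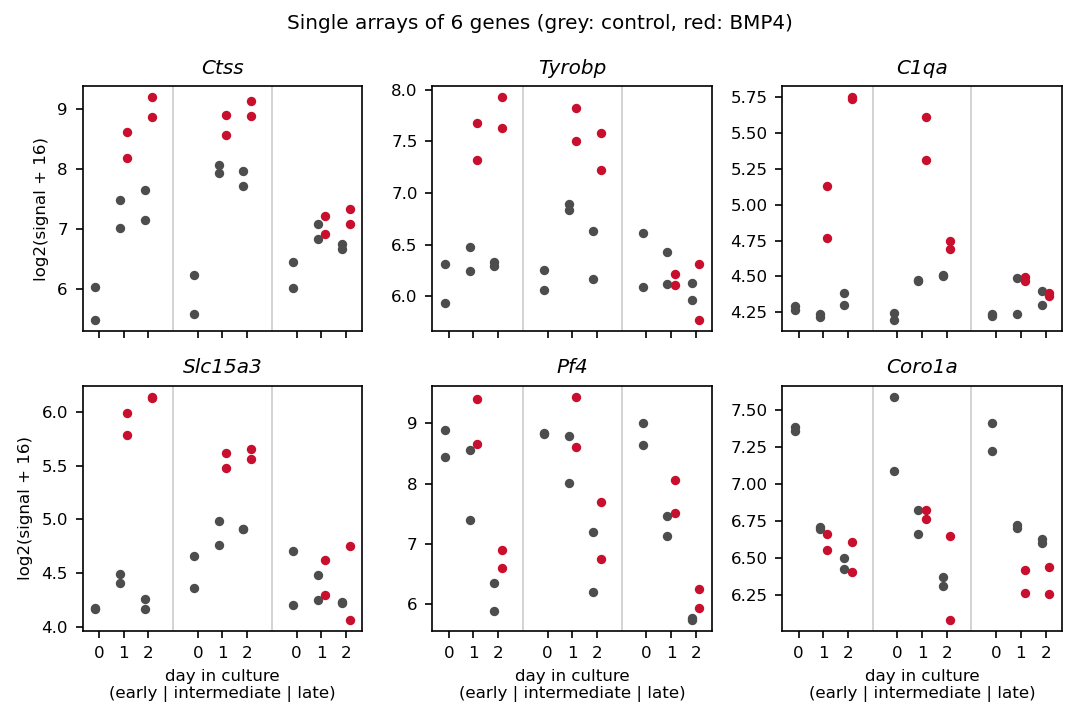
Log2(signal + 16) in single arrays for Ctss, Tyrobp, C1qa, Slc15a3, Pf4 and Coro1a, by day and population, with control arrays in grey and BMP4 arrays in red. For Ctss, Tyrobp, C1qa and Slc15a3 all red points of the early and intermediate populations lie above all grey ones, while the late red and grey points overlap. Coro1a is highest at day 0, and Pf4 is lower at day 2 than at day 0.

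Of the integrins and leukocyte surface proteins, 4 of 6 were tested and 2 rose. Ptprc, the CD45 phosphatase carried by white blood cells in general, had a median of 6.15 (5.89 to 6.36) in distal BMP4 arrays and 5.42 (4.75 to 6.01) in distal controls and rose by 0.60 ± 0.11 (adjusted p = 0.00133, limma). Cd53, a tetraspanin of leukocytes, had a median of 6.91 (6.30 to 7.40) in distal BMP4 arrays against 5.96 (5.56 to 6.30) in distal controls and 5.64 (5.43 to 5.95) in late BMP4 arrays. It rose by 1.09 ± 0.15 in early (adjusted p = 8.38e-05) and 0.78 ± 0.15 in intermediate cultures (adjusted p = 0.0184). The intermediate call of Cd53 held in 2 of the 8 fits without 1 array. Itgb2, the common chain of leukocyte integrins, differed by 0.18 ± 0.13 (adjusted p = 0.433), and its partner Itgam stayed between 4.09 and 4.85 on all 30 arrays. Cd52 differed by 0.15 ± 0.15 (adjusted p = 0.576).

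Of the cytoskeletal, GTPase and oxidase genes 0 of the 4 tested were called by limma with all populations averaged: Lcp1, which bundles actin, differed by 0.17 ± 0.09 (adjusted p = 0.228), Rac2, the small GTPase of blood cells, by 0.20 ± 0.10 (adjusted p = 0.225), Cybb, the catalytic chain of the phagocyte oxidase, by 0.19 ± 0.08 (adjusted p = 0.128) and Coro1a by -0.10 ± 0.07 (adjusted p = 0.42). The early and late values of Lcp1 lay on opposite sides of 0. Early cultures read 6.91, 6.79, 6.66 and 7.10 with BMP4 against 6.07 to 6.42 in controls, a rise of 0.62 ± 0.15 (adjusted p = 0.0114) that was not called without replicate 1 of early day 1 control or replicate 2 of early day 2 BMP4, whereas late cultures read 6.21, 6.14, 5.51 and 5.45 against 5.91 to 6.38, a difference of -0.42 ± 0.15 that was not called (adjusted p = 0.36). Early minus late for Lcp1 was 1.04 ± 0.22 (adjusted p = 0.0263). A second probe set of Lcp1 rose by 0.76 ± 0.11 over all populations (adjusted p = 0.000108 in the fit of 27577 probe sets), so the 2 probe sets of Lcp1 gave different sizes. A dimmer probe set of Cybb rose by 0.28 ± 0.09 in that fit (adjusted p = 0.0452).

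Among the secreted proteins Pf4, platelet factor 4, a chemokine made by megakaryocytes and by some embryonic macrophages, had a course of its own. It read 8.44 to 9.0 in the 6 day 0 arrays. At day 1 control arrays read 7.40 and 8.56 in early, 8.02 and 8.79 in intermediate and 7.13 and 7.46 in late cultures, and at day 2 5.89 and 6.35, 6.20 and 7.19, and 5.75 and 5.78. Day 2 did not overlap with day 0, and the late population was lowest at day 2. Pf4 fell by 0.88 ± 0.23 from day 0 to day 1 in control medium (adjusted p = 0.00438, limma), by 1.70 ± 0.23 from day 1 to day 2 in control medium (adjusted p = 6.32e-05) and by 1.92 ± 0.23 over the same day with BMP4 (adjusted p = 3.8e-05). It was also 0.61 ± 0.16 higher with BMP4 than without (adjusted p = 0.0188). Among megakaryocyte and platelet genes, 2 of 7 fell from day 0 to day 1, where 17% of all genes did. These were Ppbp (-0.67 ± 0.24) and Itga2b (-0.22 ± 0.08). Ppbp also fell by 1.36 ± 0.24 from day 1 to day 2 with BMP4 (adjusted p = 0.00183, limma), where 2.18% of all genes fell. The part of such cells in the course of Pf4 was not tested. The chemokines Ccl3 and Ccl4 differed with BMP4 by 0.51 ± 0.18 (adjusted p = 0.0731) and 0.14 ± 0.11 (adjusted p = 0.445), and Hpgds, the haematopoietic prostaglandin D synthase, by 0.18 ± 0.10 (adjusted p = 0.242).

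The first day of culture moved the genes in both directions. From day 0 to day 1 in control medium 3 of 33 rose and 7 fell. Of all genes 39.5% were called, 22.5% as higher and 17% as lower. The 10 members called were 30.3% of those tested, a lower share than in the whole array. Ctss rose by 1.44 ± 0.14 (adjusted p = 1.05e-07, limma), Cd52, a small surface glycoprotein of leukocytes, by 0.80 ± 0.21 (adjusted p = 0.00498) and Lyz2 by 0.41 ± 0.15 (adjusted p = 0.0381). Besides Pf4 and Spi1, the genes that fell were Mrc1 (-0.69 ± 0.16), Coro1a (-0.62 ± 0.10), Cd68 (-0.52 ± 0.13), Cd14 (-0.49 ± 0.18) and Ccl4 (-0.40 ± 0.15). Without the replicate 2 arrays of day 0 the count was 4: Ctss (1.49), Cd52 (0.96), Coro1a (-0.73) and Cd68 (-0.67) were called, and Pf4 was not (-0.75, adjusted p = 0.0688). Leaving out replicate 2 of intermediate day 0 alone gave 6. Csf1r changed by -0.10 ± 0.12 (adjusted p = 0.541), C1qa by 0.11 ± 0.11 (adjusted p = 0.476), Tyrobp by 0.29 ± 0.13 (adjusted p = 0.0948), Ptprc by -0.29 ± 0.16 (adjusted p = 0.162) and Cx3cr1 by 0.25 ± 0.18 (adjusted p = 0.285).

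Coro1a, coronin 1A of the leukocyte cortex, separated day 0 from the later days. It read 7.36 and 7.39, 7.59 and 7.09, and 7.41 and 7.23 in the early, intermediate and late day 0 arrays and 6.08 to 6.83 in all 24 arrays of days 1 and 2, with no overlap. In late cultures its 4 BMP4 arrays (6.26 to 6.44) lay below the 4 controls (6.60 to 6.72), a difference of -0.32 ± 0.13 that was not called (adjusted p = 0.424, limma). Over the same first day other blood and vessel genes fell much more, where 17% of all genes were called as lower. The red cell genes fell in 6 of 7 cases, with a median difference of -3.03 (Hbb-bh1 by 7.02 ± 0.29), the endothelial genes in 7 of 9, with a median of -1.08 (Cdh5 by 1.55 ± 0.19), and the haematopoietic progenitor genes in 6 of 7, with a median of -0.65 (Cd34 by 1.68 ± 0.19). The median over the 33 macrophage and leukocyte genes was -0.10 and over all genes -0.0039.

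From day 1 to day 2 only Pf4 was called in control medium, as lower, where 8.55% of all genes were called and 2.94% were lower. Leaving out replicate 1 of late day 1 control gave 2 and leaving out replicate 1 of late day 2 control gave 3. With BMP4 again only Pf4 was called, where 5.47% of all genes were, 3.29% as higher and 2.18% as lower. The median over the 33 genes was -0.13 in control medium and -0.01 with BMP4.

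Over days 1 and 2, 20 of the 33 genes were higher in early than in late cultures, where 9.02% of all genes were called, 3.75% as higher and 5.27% as lower, with a median of 0.54 against 0.02. In intermediate cultures 19 were higher than in late ones, where 7.64% of all genes were called, 2.81% as higher and 4.84% as lower, with a median of 0.61 against 0.0032. The largest were Ctss (1.41 ± 0.13), Mpeg1 (1.26 ± 0.21), C1qb (1.22 ± 0.22) and Cd52 (1.17 ± 0.19) in the latter comparison. Both counts include C1qa and Slc15a3, which had passed the brightness filter through distal BMP4 arrays only. They also include Mpeg1, which passed through 8 such arrays and 1 other. With no filter 19 of the 36 genes were higher in early than in late cultures, with a median of 0.51 against 0.02. In intermediate cultures 17 were higher than in late ones, with a median of 0.51 against 0.01. Early and intermediate cultures were not told apart: 0 members were called by limma, where 3.26% of all genes were, 1.56% as higher, and 6 had an unadjusted p under 0.05. Leaving out replicate 2 of early day 2 BMP4 gave 1.

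These comparisons average control and BMP4 cultures, so control cultures were also compared alone, in contrasts added after the data were seen. Early controls differed from late controls in 0 members by limma, with 3 at an unadjusted p under 0.05, where 0.244% of all genes were higher and the median was 0.18 against 0.01. Intermediate controls were higher than late controls in 4 members, where 0.786% of all genes were higher: Ctss by 1.09 ± 0.18 (adjusted p = 0.000877), Cd52 by 1.07 ± 0.26 (adjusted p = 0.0267), Ptprc by 0.73 ± 0.19 (adjusted p = 0.049) and Fcgr3 by 0.70 ± 0.16 (adjusted p = 0.0153). The count fell to 2 without replicate 2 of intermediate day 1 control or either replicate of late day 1 control, and to 1 without replicate 1 of intermediate day 1 control or replicate 2 of intermediate or late day 2 control. Ptprc was called in 0 of the 8 fits without 1 array.

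**Figure D4:**
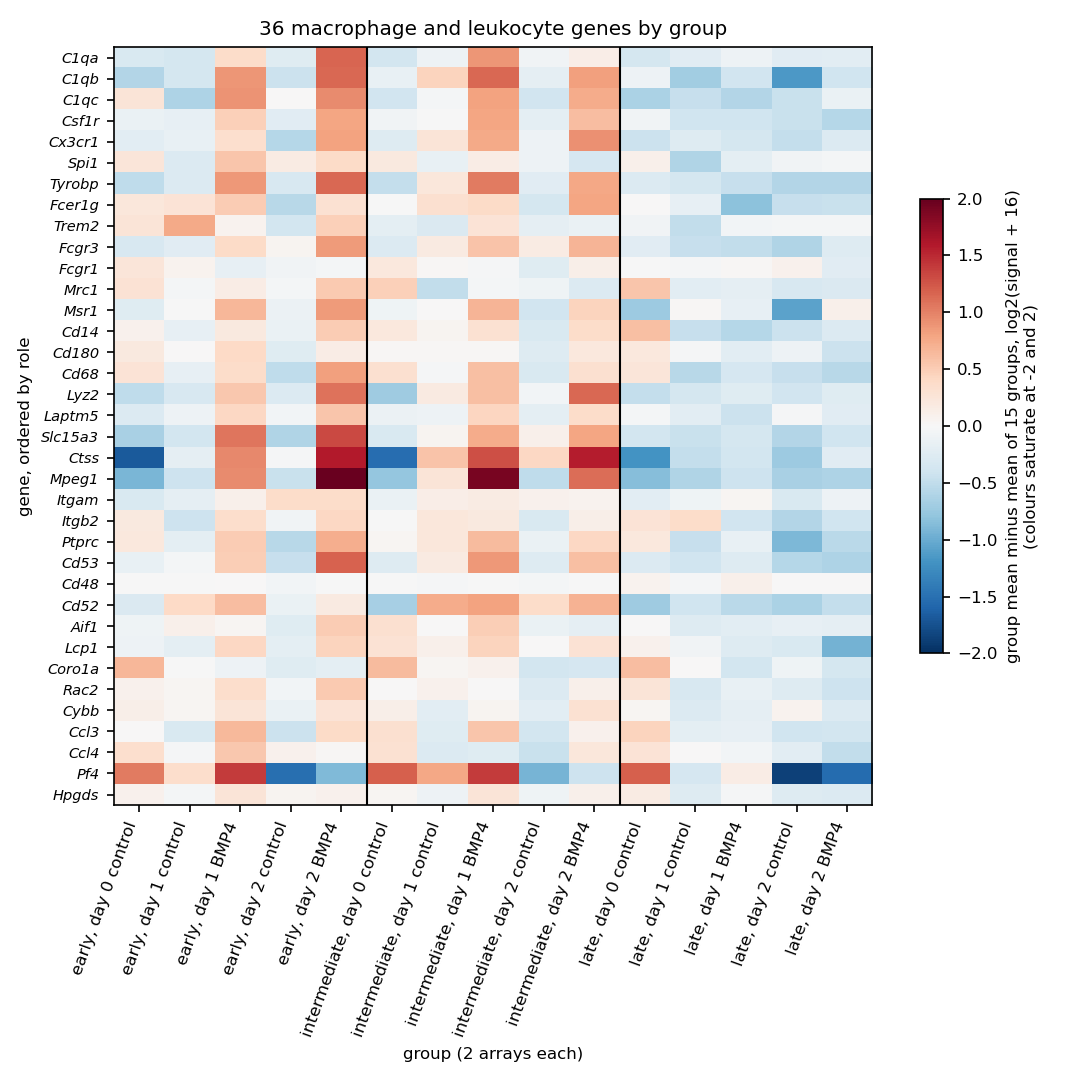
Group mean of each of the 36 genes minus its mean over the 15 groups, on the log2(signal + 16) scale, with genes in order of role and groups in order of population, day and treatment. Red is above and blue below the gene's own mean, and colours saturate at -2 and 2. The BMP4 columns of the early and intermediate populations are red for most genes, those of the late population are pale or blue, and Ctss and Pf4 run in opposite directions over time.

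In 7 genes all 8 distal BMP4 arrays lay above the other 22: C1qa, Csf1r, Tyrobp, Lyz2, Slc15a3, Ctss and Cd53. Among all genes tested 15, or 0.0991%, did so. Slc15a3 had passed the brightness filter through those same 8 arrays, and C1qa through 4 of them. With no filter the same 7 of 36 members did so, among 16 of 18193 genes, or 0.0879%. The other 8 were Apoe, Adgre1, Gpnmb, Ccdc82, C3ar1, Ms4a6b, Ms4a6d and Cyp4v3, named after their values were seen. Apoe, the lipid carrier that macrophages secrete, read 8.68 to 9.72 in those 8 arrays and at most 8.42 elsewhere. Gpnmb, a glycoprotein of phagocytes and other cells, read 8.20 to 9.73 against at most 7.88. In the late population 0 members had all 4 BMP4 arrays above all 4 controls, where 2.77% of all genes did.

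The tested genes were alike to different degrees. The 528 pairs among them had a median r of 0.46 over the 30 arrays, with a range of -0.59 to 0.93. Csf1r followed the mean of the other members most closely (r = 0.96), then Tyrobp (0.90) and Cd53 (0.90), and Fcgr1 (0.03), Coro1a (0.09) and Trem2 (0.26) least. These values are descriptive, since the arrays share groups and overall brightness. By the same measure, the genes outside the set closest to its mean profile were Nckap1l (r = 0.88), a part of the haematopoietic actin regulator, Pik3ap1 (0.88), an adaptor for phosphoinositide 3-kinase, C3ar1 (0.88), the receptor for complement C3a, and Evi2a (0.87). Cd300a (0.85), Serpinb6b, Ifi202b and Ctla2b (0.83) followed.

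Other lists of genes, also chosen with earlier results of these data known, were set beside the 6.1% of all genes that rose and the 5.55% that fell with BMP4. Of 34 further macrophage genes 10 rose with BMP4 and 0 fell, including Gpnmb (1.22 ± 0.17), Ctsb (0.29 ± 0.05), C3ar1 (0.51 ± 0.09), Lgals3 (0.85 ± 0.17) and Adgre1 (0.44 ± 0.11), with a median of 0.23. Of 31 genes of leukocyte signalling and cytoskeleton 7 rose and 0 fell, Nckap1l (0.44 ± 0.09), Cd84 (0.46 ± 0.10), Evi2a (0.39 ± 0.09) and Ncf1 (0.38 ± 0.08) among them, with a median of 0.26. In late cultures 0 of the 34 and 0 of the 31 were called by limma, where 0.277% of all genes were called with both days averaged. Mertk, a receptor with which macrophages and other cells bind dying cells, went the other way in early cultures (-1.02 ± 0.17, adjusted p = 0.000686).

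Of 10 growth factors and chemoattractants for macrophages, Tgfb1 rose with BMP4 (0.81 ± 0.14) and Cxcl12 fell by 1.03 ± 0.11. Csf1, the main ligand of Csf1r, rose by 1.76 ± 0.23 from day 0 to day 1 in control medium (adjusted p = 2.42e-06, limma) and differed with BMP4 by 0.19 ± 0.16 (adjusted p = 0.511). Il34, its other ligand, was dim (4.17 to 5.39) and differed by -0.19 ± 0.12 (adjusted p = 0.363).

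Lists for other cell types gave the calls that follow with BMP4. With the 3 populations and both days averaged, 11.7% of all genes were called, 6.1% as higher and 5.55% as lower. A list this short without a call therefore does not show a lack of response. None of the 3 T cell, 4 B cell, 6 neutrophil, 4 microglia, 7 platelet and 7 red cell genes tested was called by limma. In the lists with a call these were Cma1 of 5 mast cell genes (0.44 ± 0.14), Klrk1 of 4 natural killer cell genes (-0.40 ± 0.13), Batf3 of 5 dendritic cell genes (-0.31 ± 0.08) and Tek of 9 endothelial genes (-0.43 ± 0.13). Of the list genes on the array, 4 of 7 T cell genes (Cd3e, Cd3d, Cd4 and Cd2), 2 of 7 mast cell genes (Mcpt4 and Hdc) and 2 of 9 neutrophil genes (S100a9 and Camp) never exceeded the 40th percentile. Others did so on many arrays, among them Cd8a on 30 and Cd5 on 22, Cpa3 on 26 and Cma1 on 25, and Ngp on 30, Mpo on 29 and Mmp9 on 28. Of the microglia genes, Tmem119, Sall1 and Olfml3 did so on all 30, with median levels of 9.61, 7.55 and 8.31. Which cells such signals came from was not tested. Of 7 haematopoietic progenitor genes Kit (1.46 ± 0.14) and Gata2 (0.50 ± 0.07) rose with BMP4. Kit also rose in late cultures (1.22 ± 0.25, adjusted p = 0.0332, limma). There, 0.231% of all genes rose with both days averaged, and 0 of the 33 macrophage and leukocyte genes were called. Of 9 limb mesenchyme genes Prrx2, Msx1 and Col1a1 rose and Twist2 fell by 0.42 ± 0.08. Msx1 rose by 1.27 ± 0.22 in late cultures (adjusted p = 0.0141).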

How the data were processed

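RNA of 30 cultures was measured on Affymetrix mouse arrays with 45101 probe sets. The deposited values are linear intensity from MAS5, per the submitters' processing notes, whose settings are not stated there. All arrays share a 2% trimmed mean of 150, which reads as a scaling step before deposit, and the number of arrays limits the precision. Values were used as log2(signal + 16). Probe sets above their array's 40th percentile on at least 2 arrays were kept, and the brightest of each gene was used, named from the platform annotation (34945 probe sets with 1 symbol, 932 with several, 9160 with none). limma 3.58.1 in R 4.3.3 fitted 15 group means to all 30 arrays (15 residual and 5.51 prior degrees of freedom, mean-variance trend, no replicate block), with two-sided Benjamini-Hochberg adjustment over 15136 genes in 16 comparisons and 5 added after the data were seen. The fit was tested on simulated data. The members and the 15 further lists (177 genes, 144 tested) were chosen with earlier results of these data known. Every member may be named, then up to 4 genes of a list with the smallest adjusted p in a comparison, and the genes whose profile over the arrays was most like the members' mean. Alternatives were another pseudocount, no filter, quantile normalization, median centring, a replicate block, only the arrays compared, no replicate 2 array of day 0, and leaving out each array.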

Additional observations from a re-analysis of the deposited data

Results flagged for a closer look

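In 7 genes the response to BMP4 differed between the early and late populations by the test of the difference itself (limma, adjusted over 15136 genes, 2 arrays a group). The early minus late difference on the log2(signal + 16) scale was 1.54 ± 0.23 for Slc15a3 (SE, adjusted p = 0.00232), 1.36 ± 0.23 for Tyrobp (adjusted p = 0.00661) and 1.08 ± 0.25 for Ctss (adjusted p = 0.0471). It was 1.04 ± 0.21 for Cd53 (adjusted p = 0.0234), 1.04 ± 0.22 for Lcp1 (adjusted p = 0.0263), 0.99 ± 0.19 for C1qa (adjusted p = 0.0212) and 0.90 ± 0.20 for Csf1r (adjusted p = 0.0398). Over the fits that left out 1 array, the highest adjusted p was 0.0125 for Slc15a3, 0.0316 for Tyrobp, 0.0724 for C1qa, 0.0885 for Cd53, 0.103 for Lcp1, 0.116 for Csf1r and 0.148 for Ctss. Slc15a3 and C1qa had passed the brightness filter through distal BMP4 arrays only, and with no filter Ctss was not called.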

How the results depend on the processing

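Of 119 calls of single members, 0 changed direction under any alternative run. All 119 held with a replicate block, 113 without the replicate 2 arrays of day 0, 111 with no filter, 105 with a pseudocount of 1, 105 with quantile normalization, 100 with median centring and 92 with only the compared arrays in the fit, which leaves fewer samples for the estimate of spread. Counts of members called moved by over 1.5 times as follows, the cause not being tested otherwise. With a pseudocount of 1, early day 1 went from 4 to 2, intermediate day 1 from 1 to 0 and the early minus late response from 7 to 3, and median centring also gave 3 for the last. With only the compared arrays, early day 1 gave 0, early day 2 7 (from 13), intermediate day 1 0, the intermediate mean of days 0 (from 5) and intermediate against late controls 2 (from 4). With a replicate block, early day 1 gave 7, intermediate day 1 3, intermediate day 2 2 (from 0), and early against intermediate 1 (from 0). With no filter early minus intermediate gave 1 (from 0). Without the replicate 2 arrays of day 0, day 1 against day 0 gave 4 (from 10) and intermediate day 1 gave 2.

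Leaving out single arrays gave 6 to 11 members for day 1 against day 0, 1 to 3 for day 2 against day 1 in control medium and 1 in each fit with BMP4. For BMP4 against control the ranges were 16 to 18 over all populations, 1 to 5 for early day 1, 5 to 11 for early day 2, 0 to 1 for intermediate day 1, 14 to 18 for the early mean of days and 0 to 7 for the intermediate one. Early against late gave 15 to 21, early against intermediate 0 to 1, intermediate against late 16 to 19 and intermediate against late controls 1 to 3. The early minus late response gave 2 to 8. All fits without an array gave 0 for late day 1, late day 2, the late mean of days, intermediate day 2, early against late controls, early minus intermediate and intermediate minus late.

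Arrays were not treated as paired, since the labels give no shared source for a number and the deviations of same-numbered arrays correlated above 0.1 in 60 of 105 pairs of groups and not in all. Their r ran from -0.12 to 0.35 (median 0.12) and was below 0 in 14 pairs, so the data hint at a weak link between same-numbered arrays that the design does not state. The members themselves read lower in replicate 1 in most groups. Their median difference, replicate 1 minus replicate 2, ran from -0.43 in early day 0 to 0.05 in late day 1 BMP4. Dimness and 2 arrays a group limit these results. Of the 36, 3 were never above the 40th percentile, and Ccl3 exceeded it on 2 arrays, C1qa on 4, Hpgds on 6, Slc15a3 on 8 and Mpeg1 on 9, so their fold changes depend on the pseudocount.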

Other observations

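Of the 36 genes 23 had a single probe set. Of the 16 further probe sets bright enough to be fitted, in 10 of the genes, 8 rose with BMP4 and 0 fell. Among them C1qb (0.74 ± 0.09, adjusted p = 3.39e-05, limma over 27577 probe sets), Msr1 (0.60 ± 0.12, adjusted p = 0.00303) and Csf1r (0.63 ± 0.18, adjusted p = 0.0301) rose as on the probe set used, while another probe set of Csf1r differed by 0.20 ± 0.11 (adjusted p = 0.302) and the second one of Cx3cr1 by 0.31 ± 0.15 (adjusted p = 0.221), where the one used was called. The second probe set of Coro1a differed by -0.14 ± 0.11 (adjusted p = 0.52).

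Kit, a receptor of mast cells, germ cells and blood progenitors among others, had a median level of 8.99 in the 6 BMP4 arrays of day 1 and 6.85 in the 6 controls of that day. Its rise in early cultures was 2.60 ± 0.25 (adjusted p = 2.27e-06, limma).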
